A study of Mus musculus with 12 samples.

Results

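The genes described here serve protein folding in the endoplasmic reticulum (ER) and the unfolded protein response, the signalling that adjusts folding capacity to load. The 38 genes were taken from a list of gene symbols written with earlier results of these data known, although the rule itself uses no measured value, and each was matched to 1 row among the 23354 gene symbols of the expression table. By role they comprised 15 folding chaperones and their cofactors, 7 genes of ER-associated degradation (ERAD, which returns misfolded proteins to the cytosol for destruction), 4 sensors and factors (Ern1, Eif2ak3, Atf6 and Xbp1) and 12 genes of the arm that runs through the transcription factors Atf4 and Ddit3. RNA-seq had been performed on dissected cortex of C57BL/6 mice at postnatal day 16, with 3 mice in each of 4 groups. Dnmt1 controls were Olig1+/+;Dnmt1flox/flox and Dnmt1 CKO (conditional knockout) mice Olig1cre/+;Dnmt1flox/flox. Dnmt3a controls were Olig1+/+;Dnmt3aflox/flox and Dnmt3a CKO mice Olig1cre/+;Dnmt3aflox/flox. Dnmt1 and Dnmt3a encode DNA methyltransferases, which maintain and newly set DNA methylation respectively. Each control group thus carried the floxed alleles of its line without cre, and each CKO mouse also carried cre in 1 of its Olig1 alleles. Olig1 drives cre in the oligodendrocyte lineage, whereas the libraries held RNA of all cortical cells, so that fewer cells of a type and less RNA per cell cannot be told apart.

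The ER folds membrane and secreted proteins, which myelinating oligodendrocytes make in large amounts. When unfolded proteins accumulate, Ern1 (IRE1) splices the Xbp1 mRNA and Atf6 is cleaved in the Golgi, and the resulting factors switch on chaperone and ERAD genes. Eif2ak3 (PERK) phosphorylates the translation factor eIF2alpha, which slows protein synthesis while favouring translation of Atf4. Atf4 also answers to amino acid shortage and other stresses through further eIF2alpha kinases, and with Ddit3 (CHOP) it acts on genes of amino acid supply and of stress-induced death.

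Values were deposited as FPKM (fragments scaled to transcript length and to the mapped reads of the library). The number of reads behind a value was not given. Relative depth, read from the steps between low values, ran from 0.856 to 1 over the 12 libraries. Dnmt1 stood at 9.78 to 10.6 FPKM in the Dnmt1 controls and 7.26 to 9.11 FPKM in the Dnmt1 CKO. Dnmt3a was at 13.6 to 15.4 FPKM in the Dnmt3a CKO and at 31.1 and 28.7 FPKM in control replicates 1 and 3 of that line, whereas in the library labelled Dnmt3a control replicate 2 it was 16.9 FPKM, near the CKO. Reads from exons outside the deleted part may still count towards these values. Olig1, whose locus carries cre in the CKO, was at 30.6, 38.8 and 32.2 FPKM in the Dnmt3a CKO. It was at 49.8 FPKM in the library labelled Dnmt3a control 2, beside 48.4 and 44.1 FPKM in controls 1 and 3. The genotype of that library was not tested. Xist, an RNA of the inactive X chromosome, was at 46.2 to 49.4 FPKM in Dnmt1 control 3, Dnmt3a control 3 and Dnmt3a CKO 3, at 1.69 to 1.85 FPKM in the Dnmt1 CKO and under 0.1 FPKM in the others. Dnmt3a control 3 also stood apart by 1 small RNA, Snord37, which held 9.34% of its summed FPKM. The calls are also given with single libraries left out, and so is the chaperone median of the Dnmt3a line. Fold changes of most single genes in that line are given with all its libraries only.

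RefSeq promoters (GRCm38.p6, from 250 bases before to 50 bases after the start) were found for 32 of the 38 genes, and not for Manf, Hyou1, Hspa13, Derl1, Atf6 and Slc7a5. The ER stress response element (ERSE) was searched as CCAAT followed 9 bases later by CCACG, on both strands. It was held by 39 of 32851 promoters (0.119%) and by 7 of the 12 chaperones with a promoter. Of the ERAD genes 2 of 6 held it (Syvn1 and Derl3), and of the Atf4-Ddit3 arm 0 of 11 genes did. Only exact matches were counted. A stretch of the Ddit3 window with the same spacing, but GCACG in place of CCACG, was therefore left out. The chaperone elements are shown because cleaved Atf6 and Xbp1 are known to act on chaperone genes through such elements. They are read 5′ to 3′ on the strand that starts with CCAAT, with both fixed blocks in capitals and the spacer in lower case.
Hspa5, chr2:34772025-34772043: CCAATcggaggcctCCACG
Hsp90b1, chr10:86705638-86705656: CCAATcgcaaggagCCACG
Hsp90b1, chr10:86705533-86705551: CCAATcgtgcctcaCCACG
Calr, chr8:84847075-84847093: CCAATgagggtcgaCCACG
Canx, chr11:50325800-50325818: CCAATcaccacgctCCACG
Pdia6, chr12:17266491-17266509: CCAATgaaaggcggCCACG
Dnajc3, chr14:118937827-118937845: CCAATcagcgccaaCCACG
Creld2, chr15:88819520-88819538: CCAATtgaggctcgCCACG
The fixed blocks are shared by construction of the search, and the 9-base spacers differ between genes. ERSE-II (ATTGG, 1 base, CCACG) was found in 12 promoters (0.0365%), among them Dnajb11 and Herpud1. The UPRE core TGACGTG was found in 661 promoters (2.01%), among them Hspa5.

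A C/EBP-ATF composite element (TGATG, any base, AA and any base) was searched for the other arm. It occurred in 1299 promoters (3.95%), in 5 of 11 genes of the Atf4-Ddit3 arm (Asns, Atf3, Chac1, Slc7a11 and Trib3), in Herpud1 and in 0 of 12 chaperones. It shares the letters TGA with the UPRE core, and no match overlapped in the genes listed here. The following windows of 300 bases are shown for the folding genes Hspa5, Calr and Pdia6 and for Trib3, whose levels are the subject of the results, 5′ to 3′ on the gene's strand with the matched elements, spacers included, in capitals.
Hspa5, chr2:34771840-34772139, plus strand: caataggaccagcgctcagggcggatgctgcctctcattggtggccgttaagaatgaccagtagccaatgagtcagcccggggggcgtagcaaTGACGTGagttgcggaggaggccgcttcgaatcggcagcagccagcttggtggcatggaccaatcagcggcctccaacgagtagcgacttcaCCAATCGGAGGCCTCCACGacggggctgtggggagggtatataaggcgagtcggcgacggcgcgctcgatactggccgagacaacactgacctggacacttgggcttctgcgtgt
Calr, chr8:84846882-84847181, minus strand: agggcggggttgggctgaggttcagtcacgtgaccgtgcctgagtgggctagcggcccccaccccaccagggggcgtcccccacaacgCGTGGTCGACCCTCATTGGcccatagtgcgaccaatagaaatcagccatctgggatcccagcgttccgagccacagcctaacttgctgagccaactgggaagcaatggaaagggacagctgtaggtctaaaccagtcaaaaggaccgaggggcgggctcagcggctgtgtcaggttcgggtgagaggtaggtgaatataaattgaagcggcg
Pdia6, chr12:17266339-17266638, plus strand: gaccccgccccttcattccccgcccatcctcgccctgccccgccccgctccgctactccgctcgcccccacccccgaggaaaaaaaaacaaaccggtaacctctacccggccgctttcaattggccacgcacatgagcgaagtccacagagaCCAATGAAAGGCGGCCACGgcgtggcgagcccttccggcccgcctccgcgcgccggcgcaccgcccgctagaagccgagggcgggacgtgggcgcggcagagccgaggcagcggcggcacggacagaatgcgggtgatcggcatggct
Trib3, chr2:152344011-152344310, minus strand: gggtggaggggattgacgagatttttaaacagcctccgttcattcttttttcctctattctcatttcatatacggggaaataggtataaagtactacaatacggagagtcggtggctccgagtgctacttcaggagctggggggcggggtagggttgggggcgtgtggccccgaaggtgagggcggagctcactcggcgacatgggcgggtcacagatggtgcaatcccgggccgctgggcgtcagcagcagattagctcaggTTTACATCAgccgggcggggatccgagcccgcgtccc
Hspa5 holds a UPRE core and an ERSE, Calr and Pdia6 hold 1 ERSE each, and Trib3 holds 1 C/EBP-ATF element, which lies 13 to 21 bases after the RefSeq start used for these windows. The GENCODE start of Trib3 lies further downstream, so that the same element is before it. These are matches of letters, and no binding was measured.

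**Figure D1:**
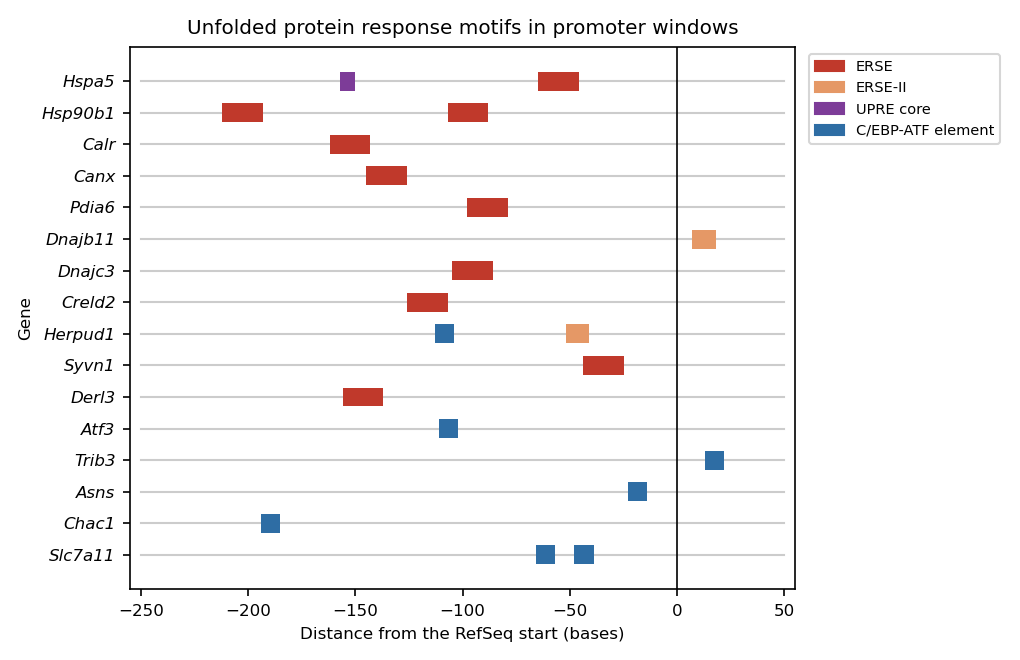
Position of the 4 motifs, in bases from the RefSeq start, in the promoter windows of the genes of the list that hold at least 1 of them. Red ERSE blocks lie on chaperone and ERAD genes, and blue C/EBP-ATF blocks on 5 genes of the Atf4-Ddit3 arm and on Herpud1.

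The first comparison asked how these genes changed when Dnmt1 was lost from the oligodendrocyte lineage. Folding chaperones were lower as a group in the Dnmt1 CKO. The mean level was lower for 15 of 15, by 1.07% to 19.2% (median change -12.3%), although Dnajb9 turned higher after either rescaling of the libraries. Of these, 4 fell at 10% FDR (false discovery rate), Pdia6, Calr, Manf and Pdia3. Of all 14115 rows tested, 8260 had a log2 fold change under 0 and 2.3% were called lower in this line. The median log2 fold changes were -0.0016 for ERAD genes, 0.0086 for the sensors and Xbp1 and -0.019 for the Atf4-Ddit3 arm. Trib3, an inhibitory pseudokinase known as a target of Atf4 and Ddit3, rose in a fit with a lower minimum. Slc7a5 was higher but passed only under some alternatives. In the Dnmt3a line Slc7a5 was higher too (log2 difference 0.23), and the difference between lines was 0.061 (limma, adjusted p = 0.889). Tests were made with limma on log2(FPKM + 0.1) with Benjamini-Hochberg adjustment over all rows whose mean reached 0.5 FPKM.

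For chaperones the median log2 fold change (CKO minus control) was -0.19, beside -0.020 over all rows tested. At an unadjusted p under 0.05 (limma) there were 12 of 15 chaperones, beside 2113 of 14115 rows. In 12 of 15 every CKO value lay under every control value, which was so for 14.4% of all rows. The genes were measured in the same 6 libraries and are not independent of each other. Dnmt1 control 1 was the lowest of the 3 controls in 11 of 15 chaperones. Among the Dnmt1 CKO mice, CKO 2 was the highest in 12 of 15 and CKO 3 the lowest in 11 of 15.

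**Figure D2:**
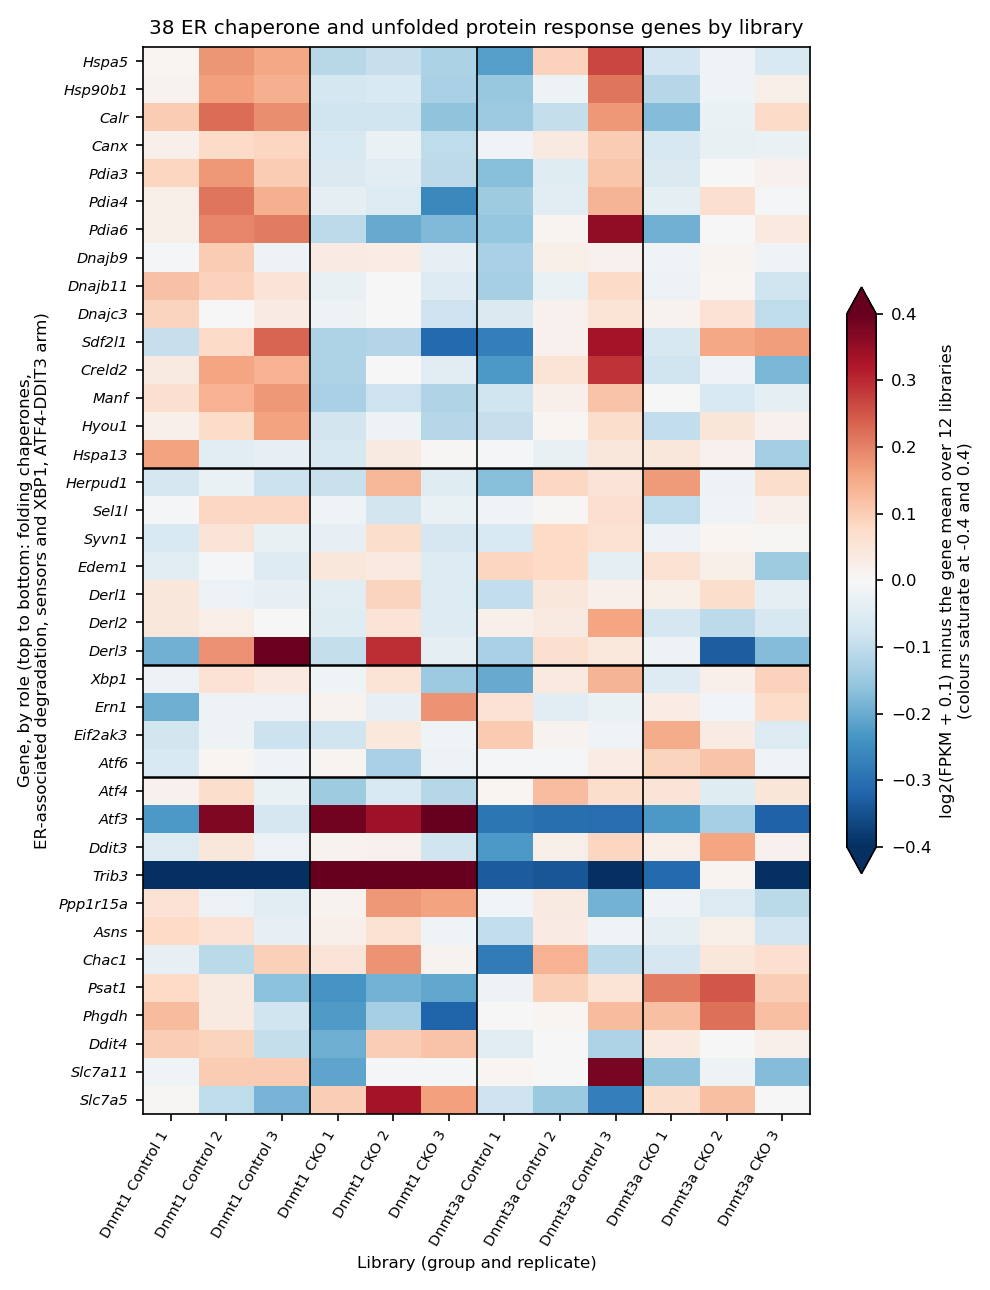
Level of each of the 38 genes in each of the 12 libraries, as log2(FPKM + 0.1) minus the gene's mean over the 12 libraries. Horizontal lines part the roles and vertical lines the groups; most chaperones are red in the Dnmt1 controls and blue in the Dnmt1 CKO, and Dnmt3a controls 1 and 3 differ from each other.

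Calr (calreticulin, a calcium-binding lectin chaperone, chr8:84841850-84846934, GRCm38, minus strand, 9 exons in the GENCODE M21 annotation) was the most abundant chaperone. It stood at 152, 165 and 161 FPKM in the 3 Dnmt1 controls and at 134, 134 and 126 FPKM in their 3 CKO littermates, a log2 fold change of -0.28 (SE 0.046, limma, adjusted p = 0.0518). The lowest control was above the highest CKO. Canx (calnexin), its membrane-bound partner in the glycoprotein cycle, had 81.8, 85.1 and 85.6 FPKM in controls and 77.4, 79.2 and 75.2 FPKM in the CKO, with a fold change of -0.12 on the log2 scale that did not pass (limma, adjusted p = 0.177).

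Pdia3, Pdia4 and Pdia6 are protein disulfide isomerases, of which Pdia3 works with Calr and Canx. Pdia3 (chr2:121413775-121438687, plus strand) was at 60.5, 64.2 and 61.1 FPKM in controls and 54.7, 55.2 and 52.9 FPKM in the CKO, log2 fold change -0.19 (SE 0.034, limma, adjusted p = 0.0641). Pdia6 (chr12:17266545-17284770, plus strand) had 32.5, 36.6 and 36.9 FPKM in controls and 29.7, 27.8 and 28.3 FPKM in the CKO, log2 fold change -0.30 (SE 0.058, limma, adjusted p = 0.0803). The groups were separate for both. Pdia4 had 12.2, 13.9 and 13.2 FPKM in controls and 11.7, 11.5 and 10.01 FPKM in the CKO, also separate, and was not called (limma, adjusted p = 0.242). Exons of Pdia3 and Pdia6 overlap genes on the opposite strand (Catsper2 and Atp6v1c2), and as strand-specific counting is not stated, reads of the overlaps cannot be told apart.

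Manf, a small secreted ER protein that binds Hspa5, was at 14.3, 15.1 and 15.4 FPKM in controls and 12.5, 12.9 and 12.6 FPKM in the CKO. Its log2 fold change was -0.24 (SE 0.038, limma, adjusted p = 0.0483), and the groups did not overlap. At chr9:106838312-106891979 (minus strand) its annotated exons overlap those of 4930524O07Rik, Dcaf1 and Rbm15b, so its value is uncertain to that extent.

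Hspa5 (BiP), the ER Hsp70 that also restrains the sensors, had 90.9, 102 and 101 FPKM in controls and 83.7, 84.6 and 82.8 FPKM in the CKO. Hsp90b1 (Grp94), the ER Hsp90, had 80.1, 88.8 and 87.4 FPKM in controls and 75.5, 75.9 and 72.5 FPKM in the CKO. Hyou1, an exchange factor for Hspa5, had 17.5, 18.2 and 19.3 FPKM in controls and 16.4, 16.997 and 15.9 FPKM in the CKO. In these 3 genes all CKO values were under the controls, with log2 differences of -0.22, -0.19 and -0.16, and none was called (limma, adjusted p = 0.120, 0.148 and 0.214).

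Dnajb11, an Hsp40 cofactor of Hspa5, had 24.1, 23.7 and 23.02 FPKM in controls and 21.7, 22.2 and 21.4 FPKM in the CKO. Sdf2l1, which works with Dnajb11, had 5.35, 6.02 and 6.73 FPKM in controls and 5.24, 5.26 and 4.59 FPKM in the CKO. Creld2, a disulfide isomerase, had 6.08, 6.63 and 6.54 FPKM in controls and 5.44, 5.93 and 5.76 FPKM in the CKO. These 3 again had separate groups with CKO lower, at log2 differences of -0.11, -0.25 and -0.17, and did not pass (limma, adjusted p = 0.165, 0.326 and 0.266). In the other 3 chaperones, the Hsp40 proteins Dnajb9 and Dnajc3 and the Hsp70-like Hspa13, the groups overlapped, and the log2 differences were -0.015, -0.074 and -0.036.

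The calls were lost more readily than the sizes. Leaving out 1 library at a time, the log2 fold change ranged from -0.312 to -0.25 for Calr, from -0.267 to -0.212 for Manf, from -0.206 to -0.163 for Pdia3 and from -0.364 to -0.271 for Pdia6, and the adjusted p reached 0.18, 0.2, 0.22 and 0.26 (limma). At the minimum mean of 0.5 FPKM, which leaves out Trib3 and Atf3, no gene of the list was called without Dnmt1 control 2, CKO 1, CKO 2 or CKO 3, without control 3 only Psat1 was, and without control 1 the called genes were Calr, Hsp90b1, Hspa5, Manf and Pdia6. Manf and Pdia6 were not called after either rescaling of the libraries, and Calr and Pdia3 were. In their place Dnajb11 (lower) and Slc7a5 (higher) were called after median-ratio rescaling, and Phgdh (lower) and Slc7a5 (higher) after quantile normalization.

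**Figure D3:**
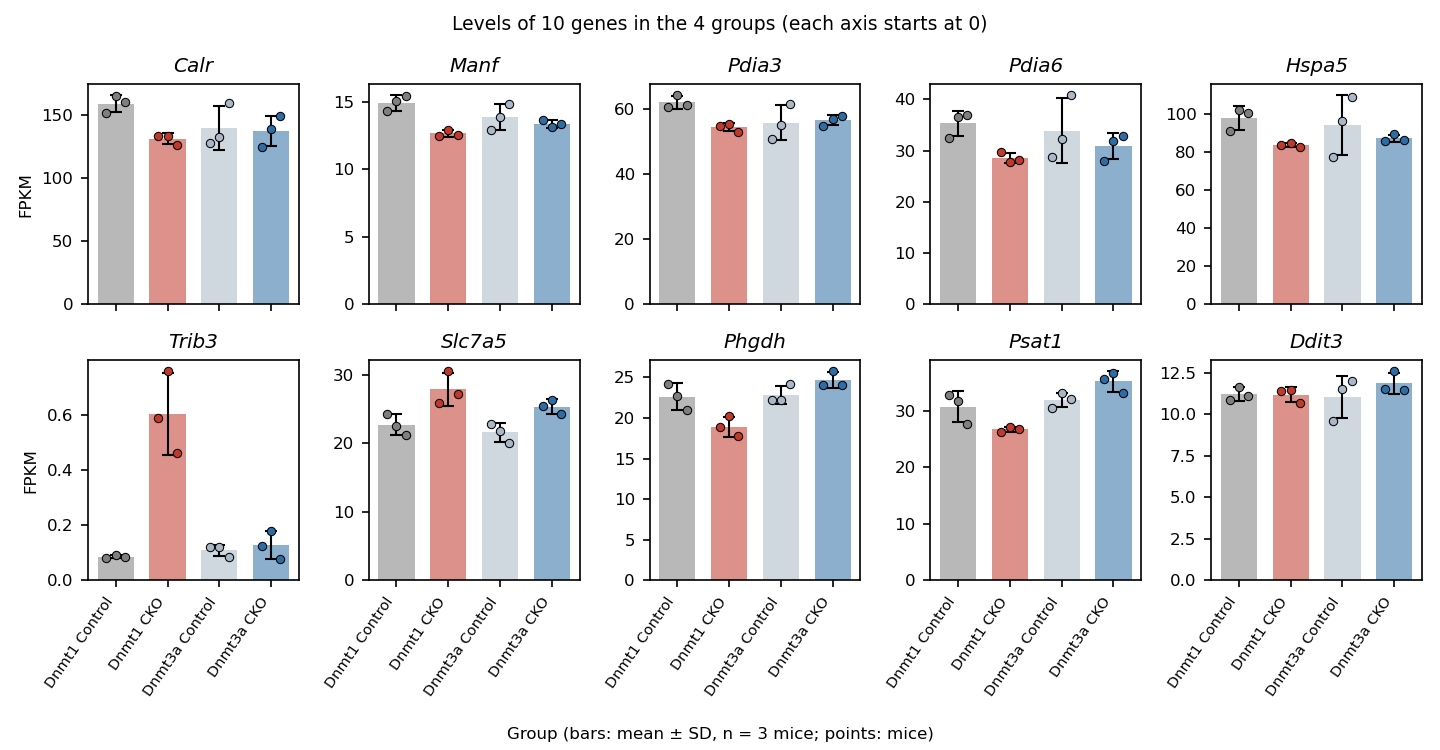
FPKM of 10 genes in the 4 groups, with points for mice, bars for the mean and error bars for the SD (n = 3). The Dnmt1 CKO points lie under the Dnmt1 control points for Calr, Manf, Pdia3, Pdia6 and Hspa5, and Trib3 reaches 0.463 to 0.762 FPKM in the Dnmt1 CKO alone.

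ERAD genes stood near their controls in the Dnmt1 line. By limma 0 of 7 were called and 1 (Sel1l) had an unadjusted p under 0.05, and the median log2 fold change was -0.0016. Sel1l, the scaffold of the ERAD ubiquitin ligase and the most abundant of the group, had 25.6, 27.2 and 27.2 FPKM in controls and 25.4, 24.4 and 25.3 FPKM in the CKO, a small separation with CKO lower (log2 difference -0.092, limma, adjusted p = 0.306). In the other 6 (Herpud1, Syvn1, Edem1, Derl1, Derl2 and Derl3) the groups overlapped, and their log2 differences ran from -0.074 for Derl3 to 0.058 for Herpud1. Syvn1, the ligase itself, differed by 0.0025. Derl3 was low, at 0.560 to 0.890 FPKM in controls.

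Among the sensors and Xbp1, 0 of 4 were called and 0 had an unadjusted p under 0.05 (limma), and CKO and control values overlapped in all 4. Xbp1 had 20.5, 21.7 and 21.4 FPKM in controls and 20.6, 21.7 and 18.9 FPKM in the CKO. Ern1 had 1.431, 1.63 and 1.62 FPKM in controls and 1.67, 1.61 and 1.88 FPKM in the CKO. The log2 differences were -0.059 and 0.13, of opposite sign and within the spread of the mice. Eif2ak3 had 5.66, 5.88 and 5.61 FPKM in controls and 5.64, 6.14 and 5.89 FPKM in the CKO, a log2 difference of 0.042. Atf6 had 8.57, 8.98 and 8.85 FPKM in controls and 8.997, 8.16 and 8.80 FPKM in the CKO, a log2 difference of -0.025. These are total mRNA levels per gene, so Xbp1 splicing and the activity of the sensors were not measured.

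In the Atf4-Ddit3 arm, 10 of 12 genes passed the minimum mean of 0.5 FPKM. Of these 0 were called and 4 had an unadjusted p under 0.05 (limma), with a median log2 fold change of -0.019. Atf4, the most abundant, had 37.9, 39.2 and 36.7 FPKM in controls and 33.9, 35.9 and 34.5 FPKM in the CKO, each CKO value under the controls (log2 difference -0.13, limma, adjusted p = 0.200). Ddit3, the factor CHOP, had 10.9, 11.7 and 11.1 FPKM in controls and 11.4, 11.5 and 10.7 FPKM in the CKO, and its groups overlapped with a log2 difference of -0.0048. Exons of Ddit3 overlap Mars and Gm4189 on the other strand.

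Among the genes of amino acid supply 3 had separate groups. Psat1 and Phgdh, enzymes of serine synthesis that are abundant in astrocytes, were lower in the CKO. Psat1 had 32.7, 31.7 and 27.6 FPKM in controls and 26.2, 27.1 and 26.8 FPKM in the CKO. Phgdh had 24.2, 22.7 and 20.9 FPKM in controls and 18.9, 20.2 and 17.7 FPKM in the CKO. Slc7a5, a subunit of the large neutral amino acid transporter, went the other way, from 24.3, 22.6 and 21.3 FPKM in controls to 25.9, 30.6 and 27.1 FPKM in the CKO. Their log2 differences were -0.20, -0.25 and 0.29, and none passed (limma, adjusted p = 0.263, 0.188 and 0.173). Each passed under a few alternatives only. Slc7a5 was called under 4 of 20 alternatives (robust eBayes, median-ratio rescaling, quantile normalization and all 12 libraries in 1 model), with adjusted p between 0.058 and 0.38 over the 20 (limma). Phgdh was called under 2 of 20 (quantile normalization and all 12 libraries in 1 model; adjusted p between 0.062 and 0.42, limma) and Psat1 under 2 of 20 (with Xist as a covariate and without Dnmt1 control 3; adjusted p between 0.03 and 0.51, limma). Groups that did not overlap were seen in 6.38% of all rows with CKO higher. Asns (asparagine synthetase), Chac1 (which degrades glutathione), Ppp1r15a (which directs the dephosphorylation of eIF2alpha), Ddit4 (an inhibitor of mTORC1) and Slc7a11 (the cystine transporter) overlapped between groups, with log2 differences from -0.14 for Slc7a11 to 0.12 for Ppp1r15a.

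Trib3 (chr2:152337422-152344032, minus strand, 4 exons) had a mean of 0.232 FPKM over the 12 libraries and entered only with a minimum mean of 0.1 FPKM. It had 0.0803, 0.0936 and 0.0859 FPKM in the Dnmt1 controls and 0.589, 0.762 and 0.463 FPKM in the Dnmt1 CKO. In the other line it had 0.122, 0.120 and 0.0865 FPKM in controls and 0.125, 0.181 and 0.0783 FPKM in the CKO. Every Dnmt1 CKO mouse was above each of the other 9 mice, and the mean was 6.98 times that of the Dnmt1 controls. The log2 fold change was 1.90 (SE 0.17, limma, adjusted p = 0.00584), where 0.914% of 16405 rows were called higher, and at the usual minimum 0.85% of rows were. As 0.1 was added before taking logs, this understates the change of so low a gene. Leaving out each library in turn gave 1.74 to 2.05, with adjusted p from 0.012 to 0.04 (limma). Its mean without the Dnmt1 CKO libraries was 0.108 FPKM, so it would have passed the lower minimum without them. No exon of another annotated gene overlaps it, and none of its words of 50 bases occurs in another annotated gene. Atf3, the other gene of low level and a stress-induced factor, had 0.195, 0.348 and 0.230 FPKM in controls and 0.352, 0.338 and 0.494 FPKM in the CKO, with overlapping groups (log2 difference 0.48, limma, adjusted p = 0.361).

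**Figure D4:**
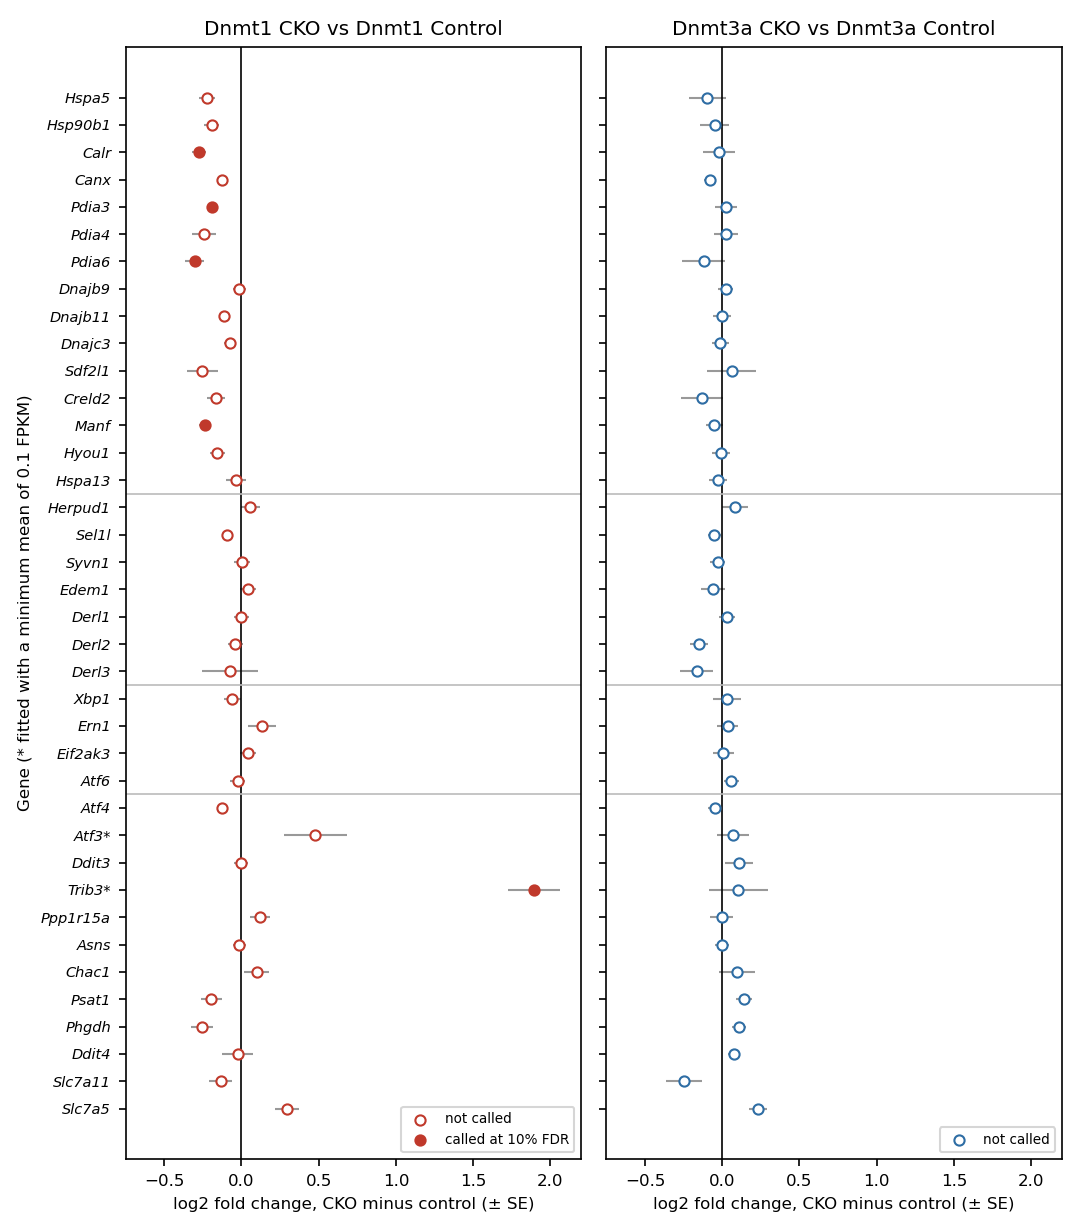
log2 fold change of each gene (CKO minus control, on the log2(FPKM + 0.1) scale) with its standard error, in the Dnmt1 line (left) and the Dnmt3a line (right), with horizontal lines between roles. Filled points passed 10% FDR; on the left these are Calr, Pdia3, Pdia6 and Manf at values under 0 and Trib3 at 1.90, and on the right there are none.

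Chaperones and the Atf4-Ddit3 arm were set side by side. In the Dnmt1 line the median of the chaperones was lower than that of the 10 tested genes of the arm by a log2 difference of -0.17, and -0.11 to -0.20 with 1 library left out. In the mean level of the 15 chaperones relative to all 12 libraries, the Dnmt1 controls had 0.044, 0.12 and 0.12 and the CKO -0.070, -0.048 and -0.12, without overlap. For the arm the controls had 0.037, 0.020 and -0.046 and the CKO -0.081, 0.048 and -0.029, which overlapped. The difference of both means within a library ran from 0.0073 to 0.16 in controls and from -0.096 to 0.011 in the CKO, and CKO 1 lay within the range of the controls.

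**Figure D5:**
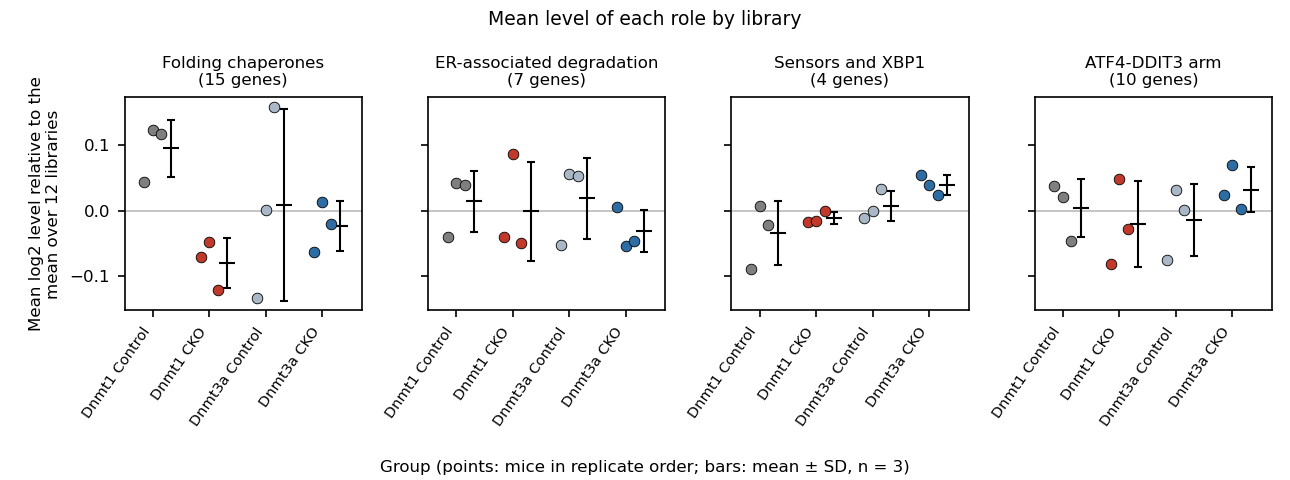
Mean of log2(FPKM + 0.1) relative to the mean over 12 libraries, per role and library, with the group mean ± SD (n = 3 mice) to the right of the points. For chaperones the 3 Dnmt1 CKO points (-0.12 to -0.048) lie under the 3 Dnmt1 control points (0.044 to 0.12), and the Dnmt3a controls spread from -0.13 to 0.16.

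The second comparison asked the same of Dnmt3a. In the Dnmt3a line 0 of the 36 tested genes were called by limma and 3 (Slc7a5, Psat1 and Derl2) had an unadjusted p under 0.05. Of all rows 0.0142% were called in this line, and 1037 of 14115 had an unadjusted p under 0.05. Trib3 and Atf3 did not pass either (limma, adjusted p = 0.924 and 0.893). By role the median log2 fold change was -0.020 for chaperones, -0.053 for ERAD genes, 0.032 for the sensors and Xbp1 and 0.086 for the Atf4-Ddit3 arm, beside 0.0067 over all rows. Chaperones were lower in 11 of 15, beside 6577 of 14115 rows.

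Chaperones varied widely among the Dnmt3a controls. Hspa5 had 77.5, 96.3 and 109 FPKM in controls and 85.7, 89.3 and 86.5 FPKM in the CKO. Hsp90b1 had 71.4, 78.1 and 91.96 FPKM in controls and 73.2, 78.3 and 80.6 FPKM in the CKO. Calr had 128, 132 and 159 FPKM in controls and 125, 139 and 149 FPKM in the CKO. The controls of Hspa5 and Hsp90b1 lay on both sides of all 3 CKO values, and 1 CKO mouse was under the lowest control of Calr. Pdia6 had 28.7, 32.2 and 40.9 FPKM in controls and 27.97, 31.96 and 32.8 FPKM in the CKO. Pdia3 had 50.6, 55.1 and 61.5 FPKM in controls and 54.7, 56.9 and 57.6 FPKM in the CKO. Manf had 12.9, 13.9 and 14.8 FPKM in controls and 13.7, 13.1 and 13.3 FPKM in the CKO. The 3 genes, which were called in the other line, overlapped between groups here, with log2 differences of -0.12, 0.022 and -0.051. Canx was the 1 chaperone without overlap, at 79.9, 82.8 and 86.6 FPKM in controls and 77.2, 79.005 and 79.3 FPKM in the CKO (log2 difference -0.081, limma, adjusted p = 0.658). With CKO lower, 5.43% of all rows had separate groups.

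The remaining chaperones overlapped too. Pdia4 had 10.9, 11.6 and 13.2 FPKM in controls and 11.7, 12.5 and 11.95 FPKM in the CKO. Dnajb11 had 20.2, 21.8 and 23.4 FPKM in controls and 21.9, 22.3 and 21.02 FPKM in the CKO. Sdf2l1 had 4.71, 5.79 and 7.21 FPKM in controls and 5.46, 6.36 and 6.43 FPKM in the CKO. Control 1 was lowest and control 3 highest in each of these. Creld2 had 5.04, 6.17 and 7.27 FPKM in controls and 5.61, 5.88 and 5.22 FPKM in the CKO. Hyou1 had 16.2, 17.4 and 18.1 FPKM in controls and 16.1, 17.8 and 17.5 FPKM in the CKO. The order of the controls was the same again.

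Over the whole group, control 1 was the lowest of the 3 Dnmt3a controls in 14 of 15 chaperones and control 3 the highest in 14 of 15. The median SD among these mice was 0.14 on the log2 scale for chaperones and 0.074 over all rows, whereas in the Dnmt1 controls it was 0.068 and 0.083. The direction rested on single libraries. Without Dnmt3a control 1 the chaperone median was -0.081 with 15 of 15 lower, without control 3 it was 0.031 with 4 of 15 lower, and without the library labelled control 2 it was -0.043. Without Dnmt3a CKO 3 the chaperone median was -0.021 with 8 of 15 lower. Of the 15 chaperones, 13 had at least 1 Dnmt1 CKO value within the range of the Dnmt3a controls and 5 had all 3 there.

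In the ERAD group Derl2, a Derlin of the ER membrane, was the gene without overlap, at 5.89, 5.95 and 6.49 FPKM in controls and 5.54, 5.39 and 5.55 FPKM in the CKO (log2 difference -0.15, limma, adjusted p = 0.657). Sel1l had 25.5, 25.8 and 26.96 FPKM in controls and 23.98, 25.4 and 26.1 FPKM in the CKO. The others differed by -0.17 (Derl3) to 0.084 (Herpud1) on the log2 scale, with overlap.

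For the sensors, Xbp1 had 18.1, 21.5 and 22.9 FPKM in the Dnmt3a controls and 20.1, 21.1 and 22.2 FPKM in the CKO. Ern1 had 1.73, 1.60 and 1.62 FPKM in controls and 1.69, 1.64 and 1.74 FPKM in the CKO. The differences were small beside the spread. Eif2ak3 had 6.43, 6.02 and 5.91 FPKM in controls and 6.63, 6.11 and 5.74 FPKM in the CKO. Atf6 had 8.89, 8.88 and 9.13 FPKM in controls and 9.51, 9.68 and 8.84 FPKM in the CKO. All 4 overlapped, at log2 differences of 0.0075 to 0.058.

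Within the Atf4-Ddit3 arm 3 genes had all Dnmt3a CKO values above the controls, which held for 7.33% of all rows. Slc7a5 had 22.9, 21.8 and 20.02 FPKM in controls and 25.4, 26.4 and 24.2 FPKM in the CKO, a log2 difference of 0.23. Psat1 had 30.5, 33.1 and 32.1 FPKM in controls and 35.7, 36.7 and 33.1 FPKM in the CKO, a log2 difference of 0.14. Ddit4 had 25.8, 26.5 and 24.4 FPKM in controls and 27.3, 26.6 and 26.98 FPKM in the CKO, a log2 difference of 0.077. None of the 3 passed (limma, adjusted p = 0.657, 0.657 and 0.679). Slc7a11 was the 1 gene of the arm with all CKO values lower, at 6.28, 6.27 and 8.16 FPKM in controls and 5.58, 6.16 and 5.54 FPKM in the CKO. Phgdh had 22.2, 22.3 and 24.2 FPKM in controls and 24.1, 25.8 and 24.1 FPKM in the CKO and control 3 was above the lowest CKO. The factors themselves overlapped. Atf4 had 37.6, 40.7 and 39.2 FPKM in controls and 38.7, 36.2 and 38.6 FPKM in the CKO. Ddit3 had 9.63, 11.5 and 12.01 FPKM in controls and 11.5, 12.6 and 11.5 FPKM in the CKO. Atf3 had 0.183, 0.181 and 0.180 FPKM in controls and 0.195, 0.216 and 0.177 FPKM in the CKO. None of the log2 differences of the factors, -0.050, 0.11 and 0.070, passed. The chaperone median was lower than that of the arm by -0.106, and by -0.033 without control 3.

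Whether the CKO effect differed between lines was tested directly, as the effect in the Dnmt1 line minus that in the Dnmt3a line. Phgdh was called, at -0.36 (SE 0.090, limma, adjusted p = 0.0963), with lower values in 3 of 3 Dnmt1 CKO mice and higher mean in the Dnmt3a CKO, and 1.83% of all rows were called lower. Psat1, the next enzyme of the pathway, had -0.34 and did not pass (limma, adjusted p = 0.122), although it was called under 6 of 25 alternatives, both rescalings included, with adjusted p between 0.016 and 0.29 (limma). With Xist as a covariate Psat1 was called and Phgdh was not. Of the words of 50 bases in Phgdh, 47.8% occur in other annotated genes, so its level is uncertain; for the other genes of the list this share was at most 5.56% (Derl1). Astrocyte markers summed to 983 to 1051 FPKM in the Dnmt3a CKO and to 901 to 944 FPKM in the other 3 groups. In the Dnmt3a line 10 of 10 of them were higher, beside 7483 of 14115 rows. Neuronal markers were higher there in 8 of 10, with sums of 2467 to 2562 FPKM in controls and 2619 to 2678 FPKM in the CKO. The part of either cell type in the result was not tested. Trib3 also differed, by 1.79 (SE 0.30, limma, adjusted p = 0.0118), where 0.402% of rows were called higher. Chaperones had a lower effect in the Dnmt1 line in 15 of 15, in 14 after median-ratio rescaling and in 13 after quantile normalization. The chaperone median was -0.14, and -0.061 without Dnmt3a control 1. By limma 0 chaperones were called and 3 had an unadjusted p under 0.05, beside 1499 of 14115 rows. Of all rows 8293 had a lower effect in the Dnmt1 line, and the median over all rows was -0.027. The call of Phgdh was lost without any 1 of Dnmt1 control 1 or 2, Dnmt1 CKO 1 or 3, Dnmt3a control 1 or 2 and the 3 Dnmt3a CKO, with the log2 difference between -0.418 and -0.314.

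A wider list of 106 genes of the same pathways, chosen for their function with earlier results of these data known, gave 103 tested genes. In the Dnmt1 line 1 was called lower (limma), where 2.3% of all rows were, and 13 had an unadjusted p under 0.05, beside 2113 of 14115 rows. Neither share was above that of all rows, and the median log2 fold change was -0.014. The called gene was Iars, an isoleucyl-tRNA synthetase on the list as a gene of the eIF2alpha-Atf4 response, with a log2 fold change of -0.19 (SE 0.031, limma, adjusted p = 0.0542). Among 38 other genes of ER folding and translocation 0 were called and 2 had an unadjusted p under 0.05 (limma). Of these 38 genes 23 were lower and 15 higher, beside 8260 of 14115 rows lower, and their median was -0.030. The lowest values were Slc6a9 (-0.30, a glycine transporter), Nfe2l2 (-0.23, the factor NRF2) and Iars. The highest were Fkbp7 (0.31, an ER prolyl isomerase), Psph (0.28, the last enzyme of serine synthesis) and Sesn2 (0.25, an amino acid sensor). In the Dnmt3a line 0 of 103 were called and 3 had an unadjusted p under 0.05 (limma), beside 1037 of 14115 rows. The extremes were Pycr1 (-0.15), Slc7a3 (-0.11) and Wfs1 (-0.092) on the low side and Nupr1 (0.37), Fkbp11 (0.32) and Sil1 (0.16) on the high side. For the difference between lines 0 were called and 6 had an unadjusted p under 0.05 (limma), beside 1499 of 14115 rows.

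Other cell types moved beside the chaperones in the Dnmt1 line. Oligodendrocyte markers were called lower in 10 of 10, and their summed level went from 1948 to 2267 FPKM in controls to 575 to 670 FPKM in the CKO. In the Dnmt3a line 0 of 10 were called and 0 had an unadjusted p under 0.05 (limma), with sums of 2478 to 2959 and 2706 to 3086 FPKM. Of the 6 progenitor markers 4 were called lower in the Dnmt1 line (110.3 to 119.6 against 84.3 to 90.5 FPKM). Endothelial markers were lower in 8 of 8 (69.6 to 75.6 against 59.3 to 66.3 FPKM), of which 0 were called and 4 had an unadjusted p under 0.05 (limma). Cytosolic heat shock genes, chaperones of another compartment, were lower in 7 of 8 (1088 to 1151 against 1007 to 1034 FPKM), of which again 0 were called and 4 had an unadjusted p under 0.05 (limma). Neuronal markers had 0 called and 0 with an unadjusted p under 0.05 (limma), with sums of 2468 to 2676 and 2592 to 2644 FPKM. No marker gene of these lists was at 0 in any library. The part of these cell types in the chaperone result was not tested.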

How the data were processed

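The authors prepared RNA from cortices of separate mice (TruSeq, Illumina), aligned reads to mm10 with TopHat and deposited FPKM values made with Cufflinks. They called genes with Cuffdiff at 10% FDR, which needs reads and could not be repeated. Versions and strand-specific counting are not given in the sources used here. Of 23850 deposited rows, 302 exact duplicates were removed and 0 columns were left without a sample.

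Within each line CKO mice were set against their controls, and both effects against each other, by limma 3.58.1 in R 4.3.3, with log2(FPKM + 0.1) as the value and a trended eBayes prior. The 14115 rows whose mean reached 0.5 FPKM were tested with Benjamini-Hochberg adjustment. Of the 38 genes 36 passed; Trib3 and Atf3 were fitted with a minimum mean of 0.1 FPKM. Scripts were tested on simulated data. The genes and lists were chosen with earlier results of these data known. All genes of the list could be named. Values of every mouse were given for genes that were called or did not overlap in a line, the most abundant of each role, Hspa5, the sensors, Xbp1, Atf4, Ddit3 and Atf3. Of the wider pathway list the called genes and the 3 largest changes each way were named. Alternatives changed the pseudocount, filter, variance model, scaling, rows per symbol, libraries fitted, threshold and covariate. The read depth behind FPKM values is unknown, so no counting interval was computed. Promoters came from RefSeq (GRCm38.p6) and gene positions from GENCODE M21 (GRCm38, the assembly of mm10).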

Additional observations from a re-analysis of the deposited data

Results flagged for a closer look

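The effect of the CKO differed between the lines for 2 genes of the list, by a test of the difference itself. For Trib3 the effect in the Dnmt1 line exceeded that in the Dnmt3a line by 1.79 on the log2(FPKM + 0.1) scale (limma, adjusted p = 0.0118), with all 3 Dnmt1 CKO mice above the other 9. For Phgdh the difference was -0.363 (limma, adjusted p = 0.0963), with the mean lower in the Dnmt1 CKO and higher in the Dnmt3a CKO than in the controls. Groups of 3 mice were too small for a test of single outlying samples.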

How the results depend on the processing

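Calls in this list lay near the threshold, and the size of the changes depended less on the processing than the calls did. In the Dnmt1 line 4 genes were called; this became 2 with no filter (Manf and Trib3), 2 with no mean-variance trend (Calr and Manf), 6 with robust eBayes (Hspa5 and Slc7a5 added), 3 with all 12 libraries in 1 model (Manf, Phgdh and Slc7a5), 3 with Xist as a covariate (Calr, Manf and Psat1), 1 at 5% FDR (Manf) and 0 with the replicate number as a block, and 0 to 5 with 1 library left out. The Xist covariate is not separate from genotype in the Dnmt1 line, where every CKO mouse lay between the low and the high controls. For the difference between lines 1 gene, Phgdh, was called. This count became 0 with a pseudocount of 1, with no mean-variance trend, at 5% FDR and with the replicate block. It became 2 with a minimum mean of 0.1 FPKM, robust eBayes, median-ratio rescaling or quantile normalization, and 0 to 2 with 1 library left out. With no filter Trib3 was called in place of Phgdh, and with Xist as a covariate Psat1 was. Apart from the stricter threshold, the cause of these losses was not tested. Leaving out a library changes the number of mice and which mice are compared at once. Controls and CKO mice with the same number did not deviate together (correlations of -0.079 to 0.035), so the numbers were not taken as pairs, and the replicate block also took the calls over all rows of the Dnmt1 line from 444 to 162. In the Dnmt3a line 0 genes were called under each alternative run. Signs turned in 6 fits, none of a called value: Dnajb9 in the Dnmt1 line (0.00806 after median-ratio rescaling, 0.012 after quantile normalization, and -0.0376 to 0.0246 with 1 library left out), Hspa13 in the Dnmt1 line (-0.0718 to 0.0302) and Trib3 in the Dnmt3a line (-0.0602 to 0.268). Over 35 results of single genes, 645 of 727 alternatives kept direction and side of the threshold, 57 lost the call and 19 gained one. Most of the 35 were not called in the main fit and had no call to lose. In the Dnmt1 line the call was lost under 9 of 20 alternatives for Calr and 8 of 20 for Manf. It was lost under 12 of 20 for Pdia3 and 13 of 20 for Pdia6, and between lines under 15 of 25 for Phgdh. The alternatives for Trib3 and Atf3, all from the lower minimum, were chosen after seeing the data, and Trib3 stayed called in 18 of 18 for the Dnmt1 line, with adjusted p of 0.00037 to 0.055 (limma). FPKM without read counts limits what can be said of low genes such as Trib3, Atf3 and Derl3.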

Other observations

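Stress-related genes outside the ER list were also read. Glucocorticoid-responsive genes were higher in 8 of 8 in the Dnmt1 line (summed level 324.5 to 407 FPKM in controls and 394 to 419 FPKM in the CKO, which overlapped), and Fkbp5, a cochaperone of the glucocorticoid receptor, was called with a log2 fold change of 0.69 (SE 0.11, limma, adjusted p = 0.0385). In the Dnmt3a line 7 of 8 were higher, with a median log2 fold change of 0.25 beside 0.19 in the Dnmt1 line, and their sums were separate (336 to 460.5 FPKM in controls and 466 to 531 FPKM in the CKO), while 0 were called and 2 had an unadjusted p under 0.05 (limma). Immediate early genes, which mark recent activity, had 0 of 11 called and 0 with an unadjusted p under 0.05 (limma) in the Dnmt1 line. Among microglial genes 2 of 8 were called higher there, C1qa (0.34) and C1qb (0.42), and among astrocyte genes 1 of 10, Gfap (0.45), where 0.85% of all rows were called higher. Choroid plexus genes summed to 3.38 to 422 FPKM over the 12 libraries, with 0 called and 0 with an unadjusted p under 0.05 (limma) in either line. Of the blood genes 3 of 5 were found, with 0 called in either line and 2 with an unadjusted p under 0.05 in the Dnmt1 line (limma).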
